A study of Mus musculus with 4 samples.

Results

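The genes described here encode the nuclear subunits of the mitochondrial respiratory chain. They were found by symbol among the 31053 genes of the count tables: symbols starting with Nduf and a subunit letter with a number (complex I, NADH dehydrogenase), Sdha to Sdhd (complex II, succinate dehydrogenase), Uqcr (complex III, ubiquinol-cytochrome c reductase) and Cox4 to Cox8 (complex IV, cytochrome c oxidase). The rule found 67 genes, of which 37 belong by symbol to complex I, 4 to complex II, 8 to complex III and 18 to complex IV. By name it takes in Ndufa4, now placed in complex IV, and Cox7a2l, which joins complexes III and IV into supercomplexes and of which C57BL/6 mice carry a shortened protein. It leaves out Ndufab1 and Cyc1, which are also subunits.

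The chain passes electrons from NADH and succinate to oxygen and pumps protons that drive ATP synthesis. Complexes I, III and IV are built from subunits of both genomes, and the mitochondrial genome gives 13 protein-coding genes (mt- genes below, which include subunits of the ATP synthase). In the kidney the proximal tubule, the thick ascending limb, the distal convoluted tubule and the intercalated cells are rich in mitochondria, which power salt and solute transport. Several complex IV subunits have a second gene that is known from muscle, testis or tissues under low oxygen.

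Single-cell RNA libraries of whole kidney came from male C57BL/6 mice killed after ischemia-reperfusion injury. There were 4 libraries, 1 per group: day 5 without a probiotic, day 5 after 4 weeks of oral L. casei Zhang (Lac.z) given before the injury, day 14 and day 28. The labels name Lac.z for that day 5 library only, and neither the number of mice per library nor an uninjured kidney is given in the sources used here. The injury is therefore shared by every group, and a comparison between libraries has no replicate.

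The libraries held 8168 to 15583 barcodes and 76678882 to 104454319 UMIs (unique molecular identifiers, which count molecules). After filters and removal of likely doublets, 6583 to 12376 cells per library remained, and pairs of libraries shared 6 to 25 cell barcodes. The median cell held 9325.5 UMIs in the day 5, 8355 in the Lac.z, 6089 in the day 14 and 4730 in the day 28 library, so later libraries were shallower. Cell classes were gated on marker genes that include no respiratory gene. Proximal tubule marker genes summed to 23152 to 46810 counts per 1000000 UMIs of the class sum (CPM) in the proximal tubule gate and to 88.5 to 482 in the macrophage gate, where they were lowest at day 5 and highest at day 28. The makeup also shifted: the proximal tubule gate held 1422, 4017, 5787 and 9500 cells (day 5, Lac.z day 5, day 14, day 28), and the macrophage gate held 3516, 1488, 730 and 396. Values below are given in that order of libraries, as CPM unless stated otherwise.

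Of the 67 genes, 61 had at least 1000 UMIs over the 4 libraries. Cox7b2, Cox8b and Cox8c, known from testis and muscle, had under 50 UMIs each (3, 3 and 0). Promoters of subunits from each kind of pattern below are shown first. RefSeq promoter windows on GRCm38.p6, from 250 bases before to 50 after the start, matched 53 of the 67 genes. The windows were searched on both strands for 4 sequence words: GCGCA, any base and then GCGC, a core of the nuclear respiratory factor 1 site, CCGGAAG, a core of ETS family sites, ACGTG, a core of the hypoxia response element, and the CCAAT box. Capitals mark matches of the first pair, which do not overlap each other in the windows shown. Uqcrc1 (core protein of complex III, chr9:108936398-108936697, + strand) and Ndufs3 (catalytic core of complex I, chr2:90904672-90904971, - strand) are among the many subunits that moved together. Cox7a1 (chr7:30183921-30184220, + strand) and Cox7a2l (chr17:83514284-83514583, - strand) are among the subunits with patterns of their own.
Uqcrc1: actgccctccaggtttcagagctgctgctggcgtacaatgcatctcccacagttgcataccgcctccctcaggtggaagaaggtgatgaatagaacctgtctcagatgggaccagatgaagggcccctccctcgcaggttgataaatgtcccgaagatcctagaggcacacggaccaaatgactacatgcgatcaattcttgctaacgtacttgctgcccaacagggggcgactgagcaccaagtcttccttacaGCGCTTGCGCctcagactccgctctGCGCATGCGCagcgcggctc
Ndufs3: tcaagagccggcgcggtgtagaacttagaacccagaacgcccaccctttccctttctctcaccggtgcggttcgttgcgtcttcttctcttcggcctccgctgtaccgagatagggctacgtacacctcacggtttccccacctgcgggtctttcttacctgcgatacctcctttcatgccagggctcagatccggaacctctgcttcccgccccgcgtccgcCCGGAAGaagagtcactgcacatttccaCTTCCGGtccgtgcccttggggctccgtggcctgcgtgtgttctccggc
Cox7a1: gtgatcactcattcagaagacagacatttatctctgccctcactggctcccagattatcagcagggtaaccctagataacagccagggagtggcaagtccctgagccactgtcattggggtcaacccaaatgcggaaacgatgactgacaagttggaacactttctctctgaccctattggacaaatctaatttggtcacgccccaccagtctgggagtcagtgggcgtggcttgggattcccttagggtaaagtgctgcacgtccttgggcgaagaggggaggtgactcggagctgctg
Cox7a2l: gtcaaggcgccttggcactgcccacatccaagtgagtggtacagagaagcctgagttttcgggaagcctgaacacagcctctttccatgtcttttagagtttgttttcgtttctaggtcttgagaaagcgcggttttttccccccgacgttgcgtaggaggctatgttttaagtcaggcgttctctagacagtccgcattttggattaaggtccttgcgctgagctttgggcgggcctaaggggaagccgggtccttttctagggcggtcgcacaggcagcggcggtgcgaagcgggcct
The Uqcrc1 window holds 2 matches of the first word, the Ndufs3 window 2 of the second, and the Cox7a1 and Cox7a2l windows none of either. The first word was in only 1 of 5 complex III windows and the second in 4 of 32 complex I windows. The Uqcrc1 and Ndufs3 windows are therefore not typical of their complexes. Matches were not compared between subunits that moved together and the others. The Cox7a1 window also holds 1 match of ACGTG and 2 of CCAAT, and the other 3 windows hold none. The first word was in 11 of 53 windows (20.8%), against 5.19% of all 27025 genes with a window and 12.0% of the 8660 of them with at least 1000 UMIs. For the second word the shares were 20.8%, 9.93% and 20.9%, so it was not more frequent in the members than in genes with at least 1000 UMIs. ACGTG was in 20.8%, 21.8% and 29.9%, and CCAAT in 39.6%, 41.1% and 42.3%, so neither was more frequent in the members. These are matches of letters and not shown to be bound sites.

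Summed over the 67 genes, the subunits were highest in the thick ascending limb, the distal convoluted tubule and the intercalated cells, intermediate in the proximal tubule and principal cells, and lowest in endothelial and immune cells. In the thick ascending limb the sums were 50852, 54829, 60357 and 52508 CPM. In the proximal tubule they were 35804, 32858, 37731 and 37522. Macrophages had 13382, 13013, 11019 and 10974. The ranges of these 3 classes did not overlap. Distal convoluted tubule cells had 60459, 54773, 56447 and 51773, which overlap the thick ascending limb. Endothelial cells, with 13865, 11874, 13434 and 12978, and T cells, with 14751, 14972, 14824 and 14245, lay near macrophages.

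For the mt- genes the thick ascending limb and the proximal tubule lay closer together, and their order turned only at day 28. They took 21.0%, 19.2%, 16.9% and 18.2% of UMIs in the proximal tubule, and 21.3%, 21.1%, 20.4% and 15.7% in the thick ascending limb. Macrophages had 4.42%, 3.64%, 4.01% and 4.36%. The number of nuclear subunit UMIs per mt- UMI was 0.170, 0.171, 0.224 and 0.206 in the proximal tubule. Some small immune classes had lower values, such as B lineage cells with 0.127, 0.331, 0.216 and 0.0956. The ratio was 0.239, 0.260, 0.295 and 0.335 in the thick ascending limb and 0.302, 0.357, 0.275 and 0.252 in macrophages, above the proximal tubule in 4 of 4 libraries for both. An exact two-sided test over 4 pairs cannot reach 0.05, so no p is given. In the distal convoluted tubule the ratio was 0.305, 0.264, 0.406 and 0.577, where the mt- share was 19.8%, 20.7%, 13.9% and 8.97%. Keeping only cells with at most 25% mt- UMIs raised the mean ratio in the proximal tubule from 0.193 to 0.259. That limit acts on the ratio's own denominator, so no conclusion is drawn from the rise.

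**Figure D1:**
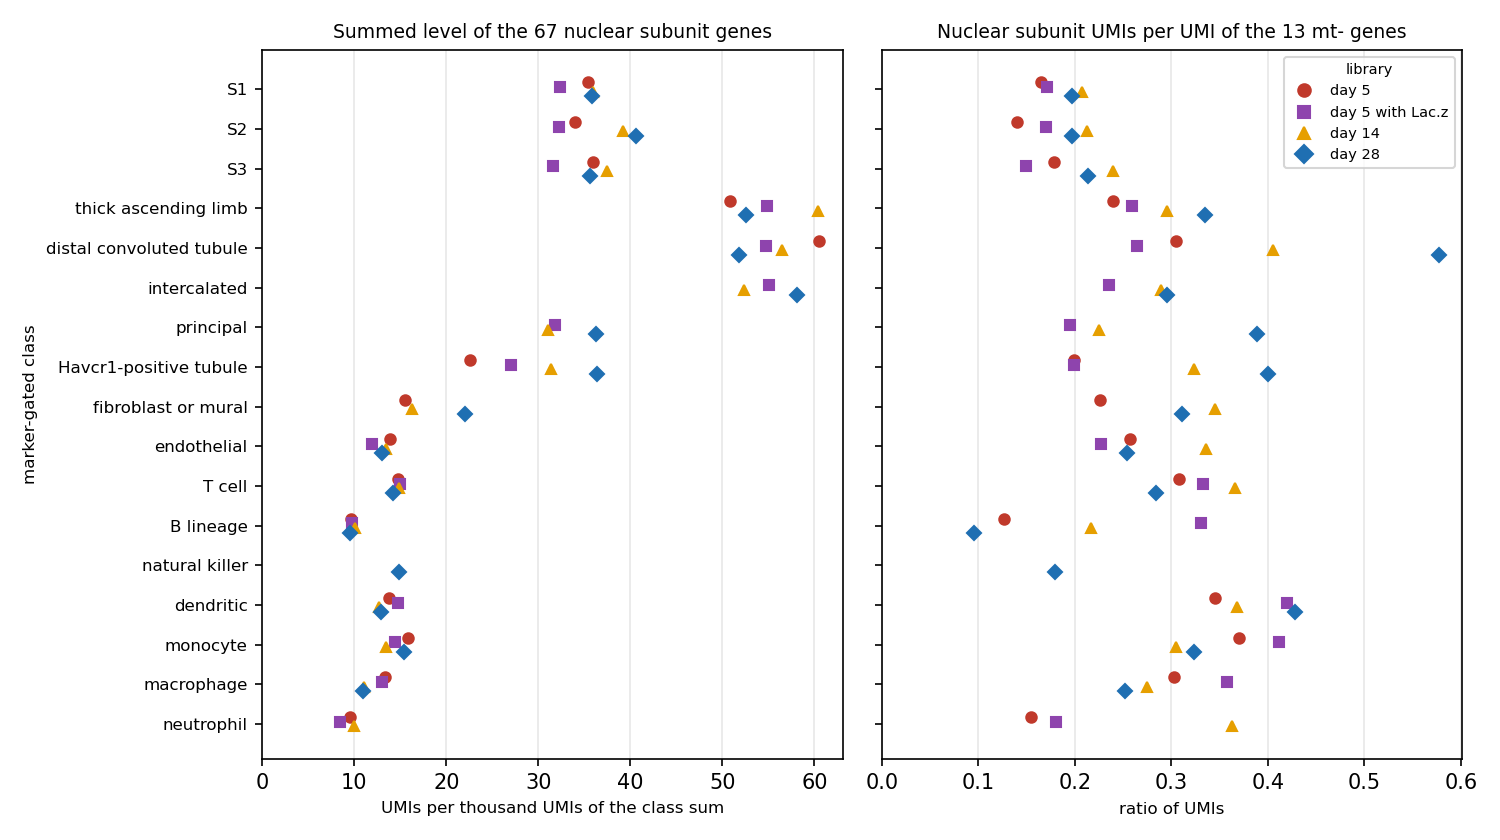
Left, summed UMIs of the 67 nuclear subunit genes per 1000 UMIs of each class; right, their UMIs per UMI of the 13 mt- genes, with 1 point per library and class of at least 20 cells and no error bars. The thick ascending limb, distal convoluted tubule and intercalated classes lie to the right of every other class (50852 to 60459 CPM), and the proximal tubule segments S1, S2 and S3 lie at low ratios.

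Across 57 class and library sums, the genes outside the fixed lists whose level ran most like the summed subunits were Ndufab1 (Pearson r 0.976 on log2 levels, of 1848 genes compared), 2410015M20Rik (0.966), Mrpl34 (0.963), Minos1 (0.963) and 2010107E04Rik (0.963). Mrpl34 is a mitochondrial ribosomal protein, and Minos1 and 2410015M20Rik are known as parts of the complex that shapes the cristae. The summed complex V genes (ATP synthase) had r 0.992 and the summed mt- genes 0.877. These sums share libraries and depth, so the values are a description only. Among the members, Cox6a2 (-0.20), Cox7a2l (-0.15), Ndufa4l2 (-0.14) and Cox4i2 (-0.13) had no positive correlation with the other members. Cox7a2l had at least 3 UMIs in all 57 sums, but Cox6a2, Ndufa4l2 and Cox4i2 had them in only 14, 8 and 5, so their values rest mostly on sums near 0.

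Within the proximal tubule the question was whether the subunits differ along the S1, S2 and S3 segments, and nearly all did not pass the test. In edgeR's quasi-likelihood test over class sums with the library as a block, a gene was called at a Benjamini-Hochberg adjusted p under 0.05 and at least 1.5-fold. Each library is the only one of its group, so p-values measure the spread over libraries that also differ in day and gavage. S2 against S1 gave 1 of 62 tested members higher and 1 lower, where 14.5% of all genes tested were called. S3 against S1 gave 0 higher and 1 lower, where 21.3% of all genes were called. The members' median log2 difference was 0.19 for S2 and 0.13 for S3. Without scaling by the trimmed mean of M-values (TMM) those medians were 0.05 and -0.01, the latter of the opposite sign, while the median of all genes moved to -0.18 and -0.17.

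Both called genes are second isoforms of complex IV. Cox6b2, known from testis, had 19.6, 18.5, 24.1 and 19.8 CPM in S1 and 32.5, 52.6, 41.9 and 33.9 in S2, with no overlap. It was higher in S2 by 1.15 on the log2 scale (SE 0.17, edgeR adjusted p = 9.1e-05). In S3 it stood at 28.1, 28.6, 27.4 and 12.3, and the S3 difference from S1 did not pass. The S3 value of day 28 lay below every S1 value.

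Cox6a2, known as the heart and muscle isoform of Cox6a, was counted in S1 and hardly in S2 or S3. The S1 sums held 14, 43, 88 and 165 Cox6a2 UMIs, S2 held 0, 1, 0 and 8, and S3 held 0, 1, 1 and 0. It entered the test through its S1 counts, so its calls are not used as support and its fitted differences are not given. At day 28 its level in S1 was at least 38.1-fold that in S3, taking 3 UMIs as the limit that a count of 0 allows in that library, and 5.97-fold that in S2 (95% interval 2.96 to 14.1, counting error only). At day 14 S1 exceeded S3 77.0-fold (13.5 to 3075), a ratio against 1 UMI. At day 5 the counts of 0 allow only bounds of 0.610-fold against S2 and 1.70-fold against S3, so that library cannot show a difference from S2 and hardly one from S3. A Cox6a2 UMI was in 2.48%, 2.20%, 4.50% and 5.12% of S1 cells and in 2.53%, 1.95%, 1.92% and 2.27% of macrophages. Median depths were 8365, 8526, 7617.5 and 6326.5 UMIs in S1 and 11418, 11030.5, 8989 and 5126 in macrophages, so at day 5 the S1 share was not above that of macrophages. In GENCODE M21 (GRCm38) Cox6a2 lies at chr7:128205435-128206387 on the - strand, 59269 bases from the glucose transporter gene Slc5a2. Slc5a2 and Slc5a12 were the only S1 genes used in the S1 gate. Whether the gate bears on this result was not tested.

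Median subunit differences of the other mitochondria-rich tubule segments from the proximal tubule lay above 0, but with TMM only a minority of subunits was called higher. In the thick ascending limb 9 of 61 tested members were higher and 2 lower, with a median of 0.36 on the log2 scale, where 41.2% of all genes tested were called. For the distal convoluted tubule the counts were 5 higher and 1 lower (median 0.31, 41.6% of all genes called). Intercalated cells, with sums from 3 libraries, had 8 higher and 1 lower (median 0.30, 43.4% of all genes called). The members' share called was below the share over all genes in each, but above it without TMM. Of the 13 members higher in any of these contrasts, Cox7b and Ndufa11 were higher in all of them. Without TMM the counts were 31 higher and 1 lower, 35 and 1, and 38 and 0, where 42.7%, 46.5% and 47.4% of all genes were called and the all-gene medians were 0.16, 0.27 and 0.25. The balance also turned with single libraries: the distal convoluted tubule had 1 higher and 3 lower without day 5, and intercalated cells had 3 and 5 without day 28 and 4 and 4 without day 5.

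Cox7b, a small complex IV subunit, had 831, 779, 848 and 816 CPM in the proximal tubule and 1554, 1798, 1895 and 1683 in the thick ascending limb. It was higher there by 0.84 on the log2 scale (SE 0.12, edgeR adjusted p = 1.5e-06). Ndufa11, an accessory subunit of the complex I membrane arm, had 324, 264, 293 and 320 in the proximal tubule. In the thick ascending limb Ndufa11 had 628, 597, 628 and 653 (log2 difference 0.82, SE 0.11, adjusted p = 2.7e-07). Both genes were separated without overlap. Cox5b, which binds zinc in complex IV, rose by 0.86 (SE 0.12), Ndufv2, a core subunit with an iron-sulfur cluster, by 0.78 and Uqcrh, the hinge protein of complex III, by 0.71. Sdhc, a membrane anchor of complex II, fell by 0.60 in the thick ascending limb (SE 0.10, adjusted p = 9e-06), with 172, 181, 199 and 223 against 256, 218, 242 and 272. The Sdhc ranges overlap slightly, since day 28 of the former lies above the Lac.z value of the latter. Its fitted difference lay close to the 1.5-fold limit. Members called lower in the thick ascending limb went from 2 to 1 without TMM and with mt- genes left out. Which member dropped out is not given here.

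Cox7a1, known as the heart and muscle isoform of Cox7a, was the intercalated cells' own high value. It had 280, 288 and 300 CPM there in the libraries with enough cells (Lac.z day 5, day 14, day 28), against 37.3, 30.3, 41.8 and 30.9 in the proximal tubule. The groups lie far apart, with a log2 difference of 2.69 (SE 0.19, edgeR adjusted p = 1.8e-12). As a share of Cox7a1 plus Cox7a2 UMIs it was 12.7%, 13.9% and 13.3% in intercalated cells, 6.47%, 7.96% and 8.19% in principal cells, and 3.19%, 2.77%, 3.39% and 2.56% in the proximal tubule. In macrophages the Cox7a1 level was 2.1 to 3.4. Ndufv3, a complex I subunit, was the member that fell in intercalated cells, by 0.83 (SE 0.14, edgeR adjusted p = 2.3e-05). Without TMM 0 members were called lower there.

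In the fits over all libraries, the mt- genes of the distal convoluted tubule did not go with the nuclear ones. There 7 of 13 mt- genes were lower than in the proximal tubule (median -0.59), where 41.6% of all genes were called in either direction. None was called in the thick ascending limb (median -0.28, 41.2% of all genes called). The gap in the distal convoluted tubule varied by library. Its mt- share was 20.7% with Lac.z, above the proximal tubule's 19.2%, and 8.97% at day 28 against 18.2%. The mt- counts were taken with TMM only. Of 16 complex V genes, 2 were higher and 1 lower in the thick ascending limb, 4 and 1 in the distal convoluted tubule (median 0.46) and 2 and 1 in intercalated cells. Of 36 assembly factors the counts were 6 and 4, 7 and 5, and 3 and 7, and of 13 citrate cycle enzymes 2 and 2, 3 and 1, and 3 and 0. Of 6 electron carriers, 2 were lower in each and 2 were higher in intercalated cells.

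Against the proximal tubule, immune and endothelial cells had lower levels of nearly all subunits. In macrophages 59 of 61 tested members were lower and 1 higher, with a median log2 difference of -1.39, where 66.1% of all genes tested were called, 32.7% as lower. T cells had 58 lower and 1 higher (median -1.43, 66.5% of all genes called, 35% as lower). Endothelial cells had 60 lower and 0 higher (median -2.02, 59.1% of all genes called, 31% as lower). All 13 mt- genes were lower in each, with medians of -2.15, -2.31 and -2.56. By complex the macrophage medians were close: -1.32 for complex I (36 of 36 tested lower), -1.49 for complex II (4 of 4), -1.59 for complex III (7 of 8) and -1.39 for complex IV (12 of 13).

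Ndufa4 had the largest gap of the complex I members, with 1750, 1538, 1711 and 1751 CPM in the proximal tubule and 274, 247, 222 and 225 in macrophages. It fell by 2.60 on the log2 scale (SE 0.13, edgeR adjusted p = 4.8e-16) and the groups do not overlap. The medians were smaller, -1.32 for complex I and -1.39 for all members. Cox4i1, the widespread form of the complex IV subunit that sets its response to ATP, had 2039, 2041, 2054 and 2135 in the proximal tubule and 1030, 900, 787 and 772 in macrophages. Uqcrh was nearest to equal, with 1011, 922, 929 and 986 in the proximal tubule and 948, 847, 817 and 797 in T cells. Its T cell difference of -0.28 (adjusted p = 0.016) was under 1.5-fold.

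Cox7a2l went the other way. It had 262, 271, 208 and 216 CPM in the proximal tubule, 571, 448, 409 and 418 in macrophages and 617, 502, 472 and 494 in T cells. Every value of both immune classes lay above every proximal tubule value. The log2 difference was 1.16 in macrophages (SE 0.11, edgeR adjusted p = 2e-10) and 1.03 in T cells (SE 0.11, adjusted p = 2.7e-09). In the thick ascending limb and intercalated cells it was higher by 0.66 and 0.65, and in endothelial cells the difference of 0.32 was under 1.5-fold.

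The rest of the pathway was lower in macrophages too. Complex V had 14 of 16 genes lower (median -1.30), the citrate cycle 13 of 13 (-1.45), assembly factors 23 of 36 (-0.72) and the electron carriers 5 of 6 (-2.31), with none higher in any of these lists. Among 14 transcriptional regulators of the pathway 10 were lower and 1 higher. The cytosolic ribosomal proteins moved the opposite way, with 86 of 94 higher and 4 lower (median 1.57). All values are shares of a class's UMIs, so a large change in one list moves the others; how much of the members' difference this makes was not tested.

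**Figure D2:**
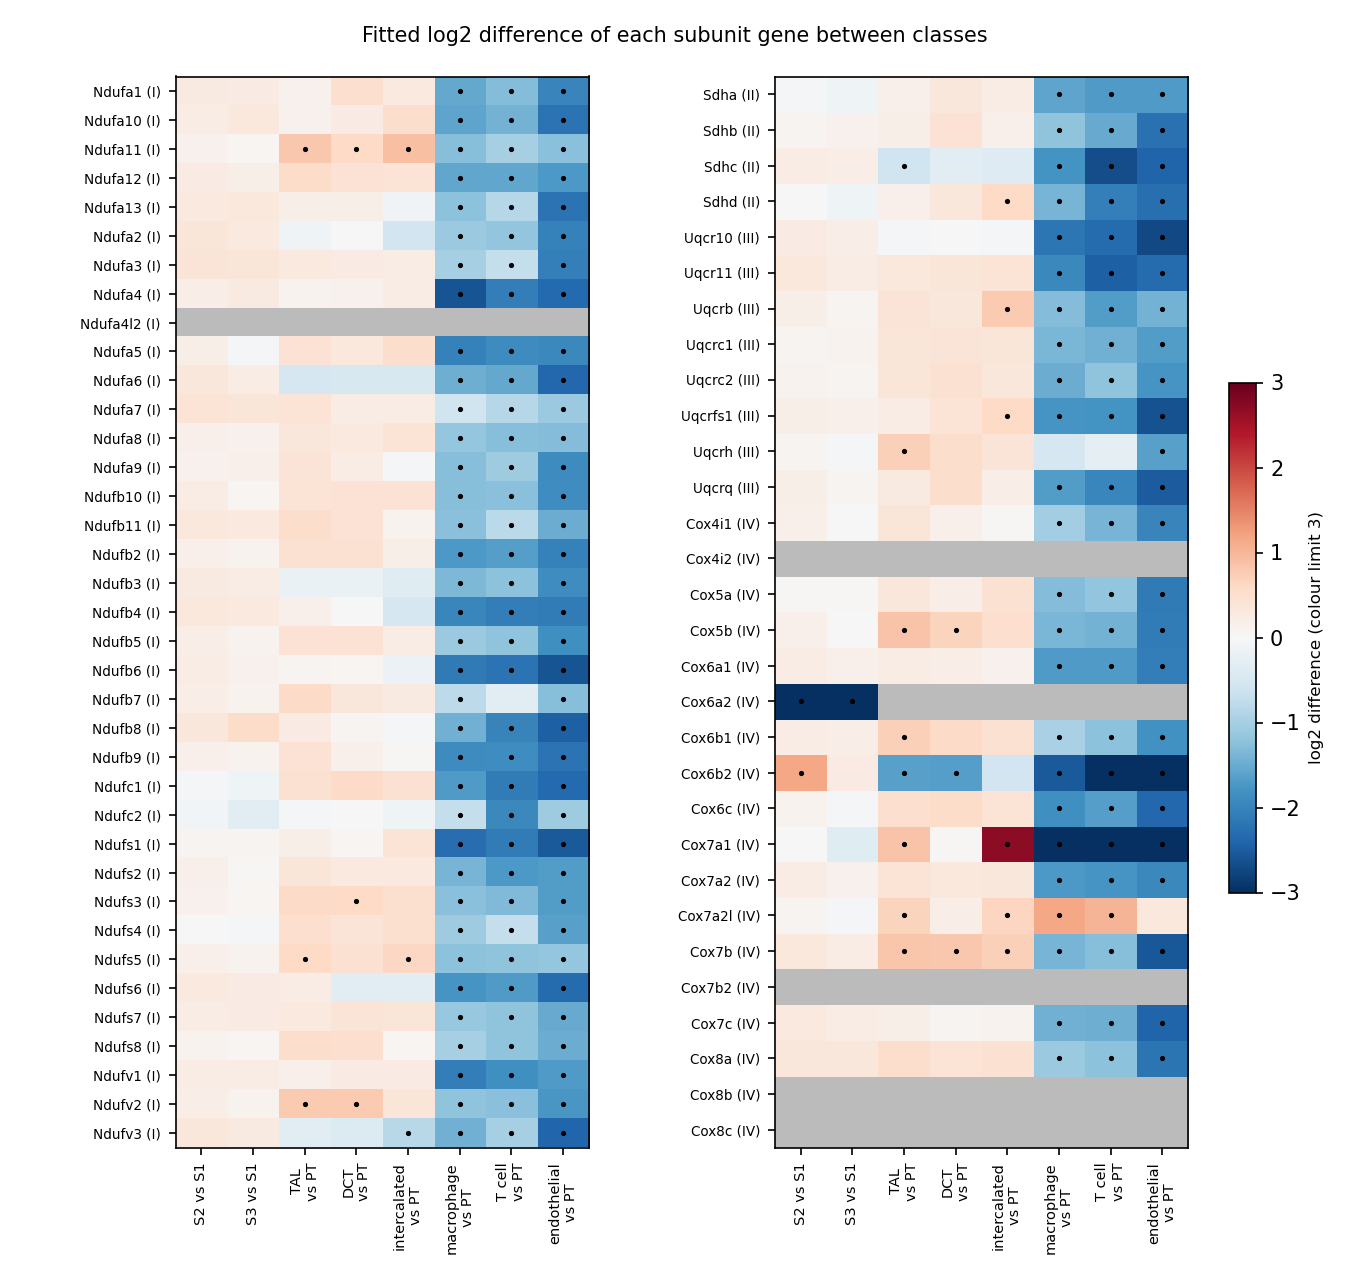
Fitted log2 difference of each member (rows, complex in brackets) for 8 class contrasts (columns; PT proximal tubule, TAL thick ascending limb, DCT distal convoluted tubule); red is higher, blue lower, a black dot marks a called gene and grey a gene not tested. The macrophage, T cell and endothelial columns are blue except Cox7a2l, and Cox7a1 is the deepest red, at 2.69 in intercalated cells.

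The low-oxygen isoforms were found in the fibroblast or mural gate, though not only there. Ndufa4l2, known as a target of the hypoxia response, made up 19.2% (95% exact Clopper-Pearson interval 16.1 to 22.6), 30.9% (26.5 to 35.5) and 27.7% (22.9 to 33.0) of Ndufa4 plus Ndufa4l2 UMIs there at day 5, day 14 and day 28. The Lac.z library had 18 such cells and no value. Ndufa4l2 had 0, 0, 5 and 14 UMIs in all proximal tubule cells. Cox4i2, the form of Cox4 known from lung and low oxygen, made up 1.38%, 8.28% and 15.7% in the gate at day 5, day 14 and day 28. Intervals cover counting error only.

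The Cox4i2 shares were higher in later libraries, where the gate's makeup also differed. Cells with more mural than fibroblast marker UMIs numbered 9 against 41 fibroblast cells at day 5, 10 against 8 in the Lac.z library, 19 against 34 on day 14 and 38 against 9 on day 28. Cox4i2 was 5.45%, 7.50%, 20% and 18.8% in the mural cells and 0.730%, 0%, 1.55% and 0% in the fibroblast cells. Ndufa4l2 was 12.5%, 28.8%, 39.2% and 27.7% in the former and 20.2%, 26.7%, 25.1% and 28.6% in the latter. Thus Cox4i2 was higher in mural cells in 4 of 4 libraries and Ndufa4l2 in 2 of 4. The Cox4i2 shares rest on 6, 6, 37 and 59 UMIs in mural cells and 5, 0, 5 and 0 in fibroblast cells. All kept cells of the libraries held 44, 17, 51 and 74, so at day 5 and with Lac.z most lay outside the gate. The mural split was added after the values were seen, and it rests on 8 to 41 cells a group.

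Outside the proximal tubule gate a few cells held many Cox6a2 UMIs. There were 310, 48, 33 and 76 Cox6a2 UMIs outside the gate, of which 218, 12, 14 and 60 lay in the 18, 1, 1 and 4 cells with at least 3 each. Of these cells, 14, 1, 1 and 4 also held Siglech, a surface receptor of plasmacytoid dendritic cells, which was found in 45, 12, 13 and 16 cells outside the gate. Siglech was chosen after these values were seen. The shares of Cox6a2 in the monocyte gate, 37.3% at day 5 and 37.3% at day 28 but 0.49% and 0% in the other libraries, rest on such cells, since the 22 UMIs of day 28 came from 1 cell.

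**Figure D3:**
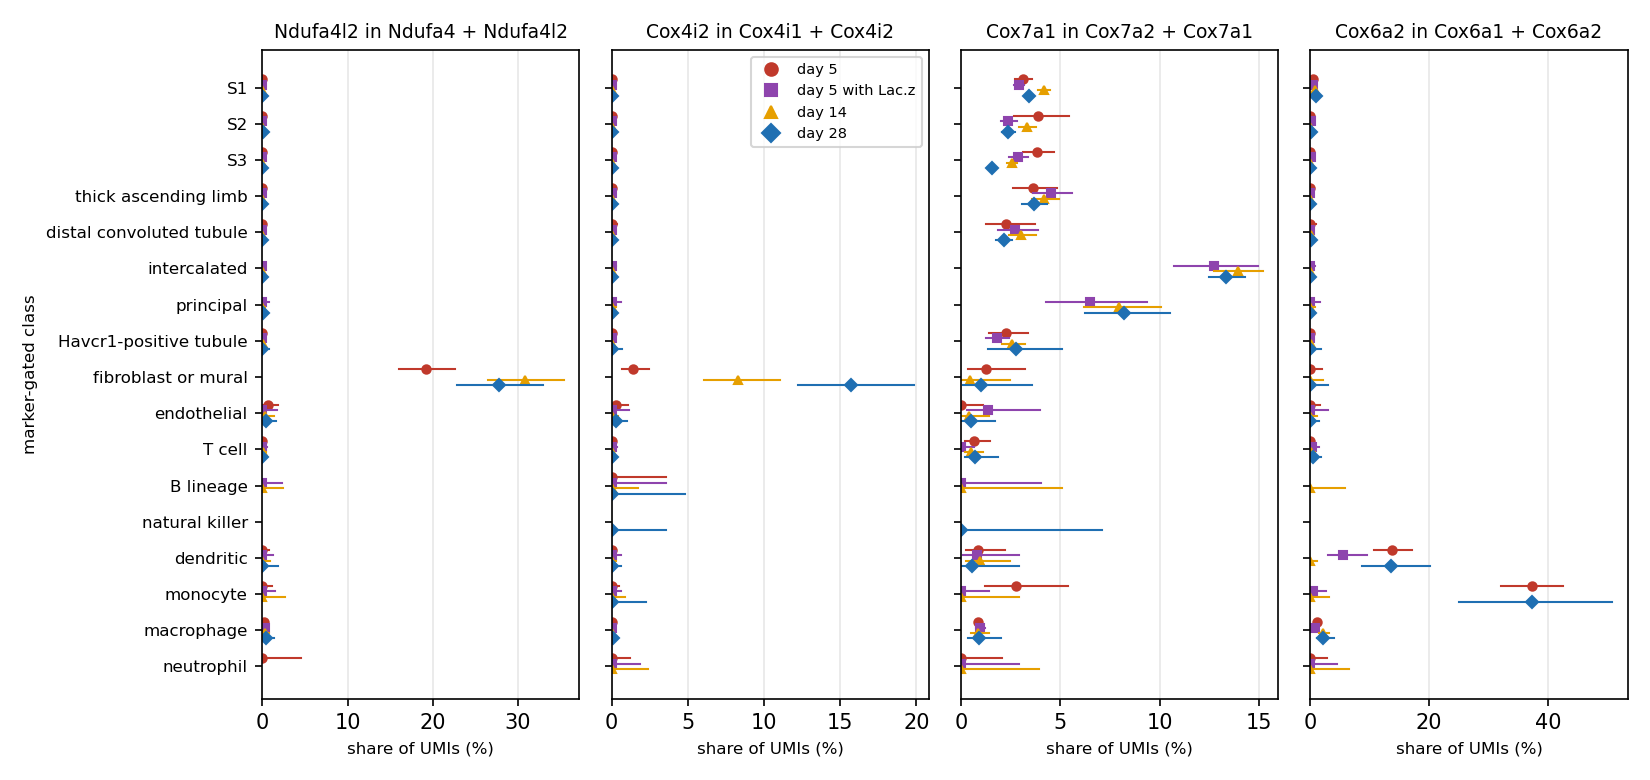
Share of the second isoform in the UMIs of each isoform pair (x axis, percent), by class, with 1 point per library and exact 95% intervals for counting error. Ndufa4l2 and Cox4i2 stand out in the fibroblast or mural class (19.2% to 30.9% and 1.38% to 15.7%), Cox7a1 in intercalated cells (12.7% to 13.9%) and Cox6a2 in monocyte and dendritic classes of some libraries.

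Between libraries the proximal tubule subunits moved little. These comparisons have 1 library a side and no test: a gene was counted at 1.5-fold with at least 50 UMIs over both libraries, and all of them share the day 5 library. With Lac.z at day 5, 0 of 62 measured members passed 1.5-fold, where 7.94% of all 11492 genes did. The median was -0.16, and 6 members lay above 0, while the all-gene median was 0.06. At day 14, 1 member was higher and 0 lower (median 0.03), where 14.8% of genes passed. At day 28 the count was also 1 and 0 (median 0.07), where 14.7% passed. The summed level was 0.918, 1.05 and 1.05 times that of day 5 for Lac.z, day 14 and day 28. With cells of at most 25% mt- UMIs the day 14 and day 28 ratios were 0.981 and 0.973, so their direction turned.

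The member past 1.5-fold at day 14 was Ndufa3, an accessory subunit of complex I, with 264, 298, 418 and 318 CPM. Its ratio to day 5 was 1.58 (95% interval 1.52 to 1.64, counting error only), and its log2 ratio was above 0 in 8 of 8 classes compared (0.23 to 0.77). At day 28 it was Cox6a2, with 17 UMIs at day 5 and 229 at day 28 and a ratio of 2.66 (1.62 to 4.65). Cox6a2 reached the minimum of UMIs over both libraries only through its day 28 UMIs. Its place past 1.5-fold is therefore not used as support for a rise at day 28. No complex II gene passed 1.5-fold. Sdha had 250, 233, 303 and 295, Sdhb 328, 289, 348 and 403, Sdhc 256, 218, 242 and 272, and Sdhd 192, 164, 234 and 221, each lowest with Lac.z. The complex II medians were -0.20, 0.18 and 0.22 on the log2 scale for Lac.z, day 14 and day 28. The 13 mt- genes had medians of -0.13, -0.28 and -0.13.

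By segment, S3 at day 28 held the lowest log2 ratios, -1.38 for Cox7a1 and -1.21 for Cox6b2. Cox7a1 in S3 had 45.6, 28.8, 30.8 and 17.6 CPM, highest at day 5 and lowest at day 28, while S1 had 36.1, 31.8, 48.8 and 39.0 with no such order. In S2 at day 28, 4 members passed upward and 0 downward (median 0.24), where 24.9% of genes passed.

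Macrophages had lower subunit levels in the later libraries. The members' median log2 ratio was -0.02 for Lac.z, -0.28 for day 14 and -0.27 for day 28, beside all-gene medians of 0.03, -0.09 and -0.02. At day 14, 57 of 62 members lay below 0 and 2 passed 1.5-fold downward with 1 upward, where 22.9% of genes passed. At day 28 the counts were 3 downward and 1 upward, where 29.4% passed. The summed level was 0.823 and 0.820 times that of day 5 at day 14 and day 28. Ndufa8, a complex I subunit, had 147, 143, 95.6 and 96.3 CPM, a ratio of 0.649 at day 14 (95% interval 0.598 to 0.703, counting error only). In T cells the medians were 0.04, -0.02 and -0.03. Dendritic cells had -0.14 at day 14 and -0.08 at day 28 (all-gene medians -0.06 and -0.07), with 48 and 44 of 60 members below 0. Endothelial cells had -0.07 and -0.05. Above 0 were the thick ascending limb, with 0.24 and 0.05, and at day 14 neutrophils (0.08) and the fibroblast or mural gate (0.11). The median depth of all kept cells was also lower in those libraries, and its part in the macrophage values was not tested.

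**Figure D4:**
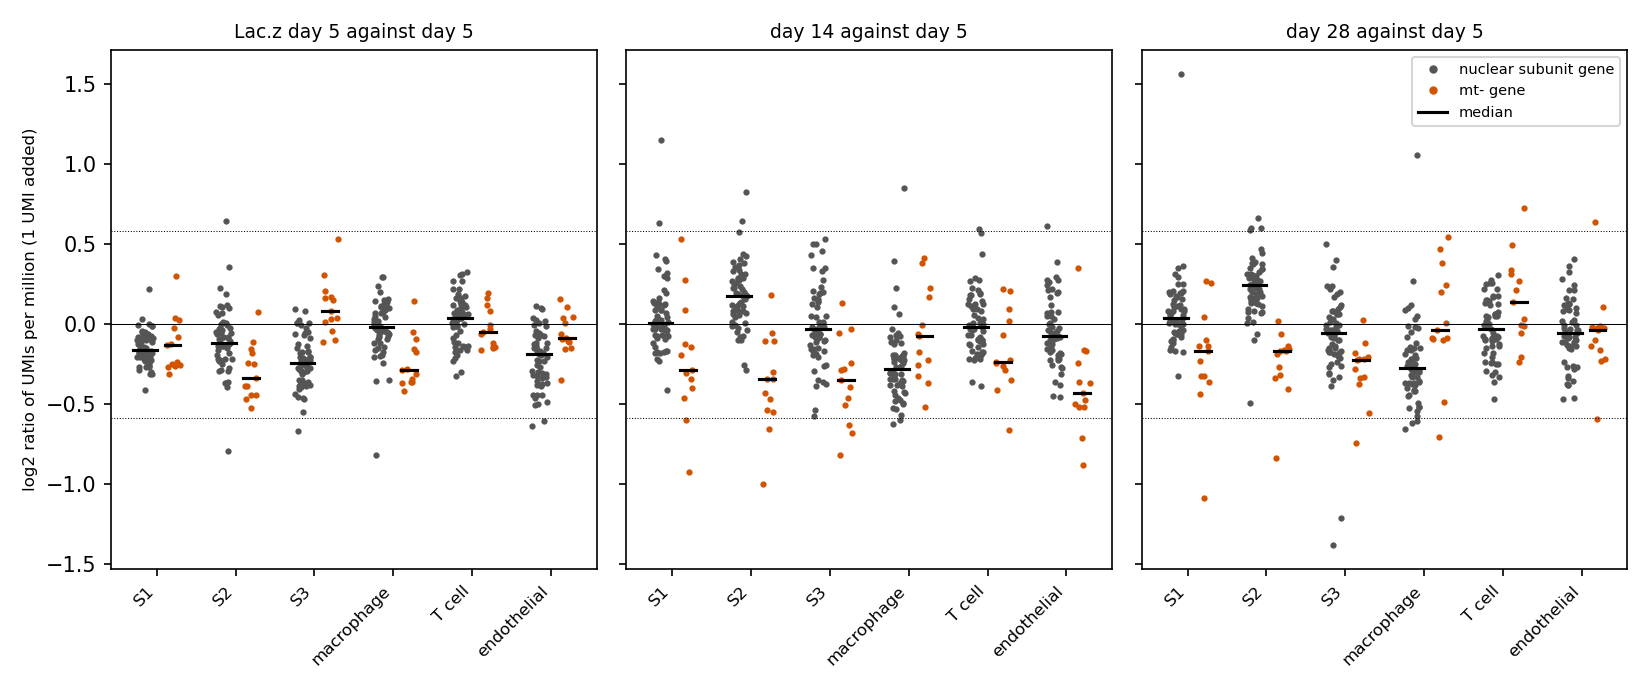
Log2 ratio of CPM to day 5 for each nuclear subunit gene (grey) and each mt- gene (orange) in 6 classes, 1 panel per library; black bars are medians and dotted lines mark 1.5-fold. The grey macrophage medians lie at -0.28 and -0.27 at day 14 and day 28.

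Havcr1-positive tubule cells, gated on the injury marker Kim-1, were compared with the other proximal tubule cells of the same library. At day 5, 45 of 61 measured members were lower by 1.5-fold and 0 higher, where 16.3% of all genes were lower. The counts were 7 of 62 lower with Lac.z (12.7% of all genes), 7 at day 14 (8.61%) and 4 at day 28 (9.16%, with 1 member higher). Medians of the members were -0.71, -0.32, -0.31 and -0.16 on the log2 scale, beside 0.32, 0.18, 0.27 and 0.60 over all genes. The summed level was 0.621 times that of the other cells at day 5 (95% interval 0.615 to 0.628, counting error only), then 0.814 (Lac.z), 0.824 (day 14) and 0.970 (day 28). Per non-mt UMI these ratios were lower, at 0.552, 0.757, 0.755 and 0.873. The Havcr1-positive cells numbered 85, 187, 205 and 22.

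At day 5, Sdhc had 123 CPM in Havcr1-positive cells against 263 in the others, Uqcrfs1, the Rieske protein of complex III, 212 against 483, and Ndufv3 167 against 424. Cox7a2l had 298 against 263, on the other side of equal. The Havcr1-positive cells also held more UMIs, with medians of 16405, 12507, 12211 and 10025 against 6734, 7717, 5764 and 4654.5. Proximal tubule marker genes summed to 7268, 13438, 20905 and 19585 CPM in them against 26573, 23624, 42807 and 46854, and mt- genes took 11.3%, 13.6%, 9.67% and 9.11% against 21.2%, 19.5%, 17.2% and 18.2%. Macrophage markers were at or below 59.4 in them. Among Havcr1-positive cells that also passed the proximal tubule gate (44, 162, 179 and 18 cells) the summed ratios were 0.730, 0.855, 0.859 and 0.823, so day 5 stayed lowest. The part of depth and marker level in these ratios was not tested.

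Within the proximal tubule gate, bins with a larger mt- share also had more nuclear subunit UMIs per non-mt UMI, apart from the lowest bin of day 5. At day 28 the level was 32677, 42787, 58164 and 59840 per 1000000 non-mt UMIs in cells with 0 to 10%, 10 to 20%, 20 to 30% and 30 to 50% mt- UMIs. At day 14 it was 34608, 43908, 58811 and 60577, and with Lac.z 34244, 37900, 46857 and 51179. Day 5 differed in its lowest bin, with 44874, 42331, 47849 and 49181. Median depth at day 28 was 8175, 4972, 3926 and 4599.5 UMIs over these bins, and its part in the pattern was not tested.

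**Figure D5:**
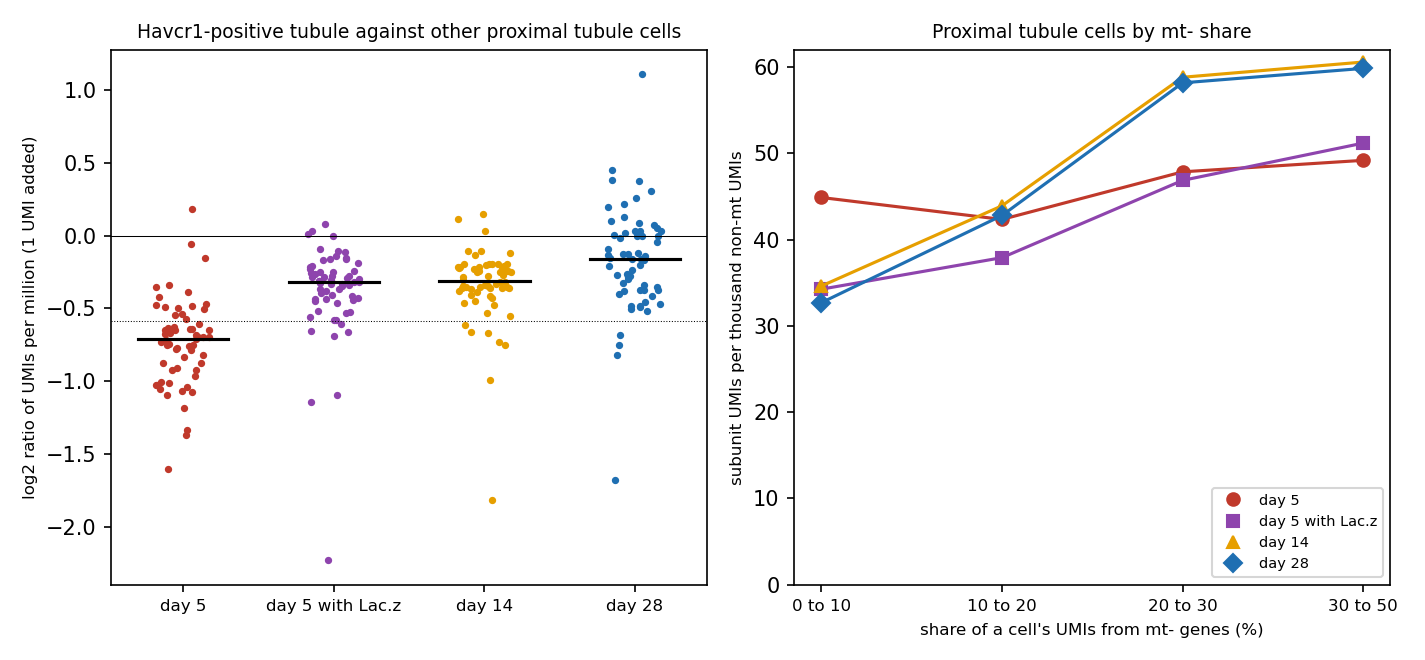
Left, log2 ratio of each member's CPM in Havcr1-positive cells to that in other proximal tubule cells, by library, with medians as bars and a dotted line at 1.5-fold lower; right, summed members per 1000 non-mt UMIs in proximal tubule cells binned by mt- share. Medians lie at -0.71, -0.32, -0.31 and -0.16, and the day 14 and day 28 lines go from 34.6 and 32.7 to 60.6 and 59.8.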

How the data were processed

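Each library was deposited by the authors as a matrix of UMI counts per gene and cell barcode, with no normalization. Per the file headers, software 3.0.2 wrote the day 5 and the Lac.z matrix, while 3.1.0 wrote the later ones. Per the submitters' processing notes the build was mm10. The sources used here do not name the aligner or the annotation. Cells with at least 200 genes and at most 50% mt- UMIs were kept. Scrublet (scanpy 1.11.5) scores were used to remove the top 0.8% of cells per 1000 barcodes (6.53% to 12.5%), because its own threshold marked 1 to 161 cells. Classes were gated on marker UMIs, and cells passing more than 1 main gate were left out. The exception was cells passing only the thick ascending limb and distal convoluted tubule gates. These went to the class whose cotransporter gene, Slc12a1 or Slc12a3, had more UMIs. Dendritic, natural killer and monocyte gates were then applied, in that order, to cells that no main gate took. Classes of at least 20 cells were summed. The sums were tested with edgeR 4.0.16 (TMM, library as block, adjustment over all genes tested), checked on simulated counts. DESeq2 1.42.0 was an alternative. Between libraries, ratios of CPM (UMIs per 1000000 UMIs of a class sum) with exact conditional binomial 95% intervals were given with no test; log2 ratios had 1 UMI added. Python 3.11.15 and R 4.3.3 were used. Named genes were the 5 highest and 5 lowest members of a comparison, isoform pairs, core subunits and the Sdh genes. Members, gene lists and tests were chosen with earlier results of these data known. The fit without TMM, the within-gate Havcr1 ratio and the Siglech and mural splits were added after seeing the data.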

Additional observations from a re-analysis of the deposited data

How the results depend on the processing

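The macrophage, T cell and endothelial counts kept their direction and stayed within 1.5 times under every alternative run, and leaving out 1 library gave 59 to 61, 59 to 59 and 60 to 60 members called. Without 1 library the counts were 2 to 2 for S2, 1 to 2 for S3, 10 to 10 for the thick ascending limb, 4 to 7 for the distal convoluted tubule and 8 to 15 for intercalated cells, the last being 15 without day 14. Directions turned in the distal convoluted tubule without day 5 (1 higher, 3 lower) and in intercalated cells without day 28 (3 and 5), and were even without day 5 (4 and 4), while without doublet removal intercalated cells had 5 and 4. The thick ascending limb count of 11 became 17 with DESeq2 size factors, 17 with DESeq2 and 32 without TMM. For the distal convoluted tubule 6 became 11, 11 and 36, and 3 with at most 25% mt- UMIs; for intercalated cells 9 became 38 without TMM, and for S3 1 became 2 at 25%. The causes were not tested. Between libraries, the day 14 proximal tubule count of 1 became 2 without doublet removal and 2 with cells weighted equally. The macrophage count of 3 at day 14 became 5 with cells weighted equally, and that of 4 at day 28 became 7 without doublet removal, 2 with a stricter gate and 8 with equal weights. At 25% mt- UMIs the mean nuclear to mt- ratio in the proximal tubule was 0.259, where the limit acts on the ratio's own denominator. The summed ratios turned to 0.981 and 0.973. Without the library as a replicate block the counts were 2, 1, 11, 8, 8, 60, 59 and 60 for S2, S3, thick ascending limb, distal convoluted tubule, intercalated, macrophage, T cell and endothelial. No paired analysis was possible between groups because each group has 1 library.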
